A study of Mus musculus with 10 samples.

Results

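Interferon-stimulated genes are the genes that cells switch on when interferons bind their receptors. A set of 42 such genes was followed in mouse pancreatic islets, spanning the sensors of foreign nucleic acid, the transcription factors of the pathway, the enzymes and binding proteins that act on viral RNA, proteins that block viral entry and release, interferon-induced GTPases, 1 chemokine and several genes of less settled function. The members are a list of genes known to be induced by interferon, and each was read from the row of the array table that names it. Of the 42 genes, 41 were measured, out of 32814 transcript rows that name at least 1 gene. Ifi44 had no row naming it and was not analysed here. Ifi27 was read from a row that also names Ifi27l1, and the other 40 members from rows that name them alone.

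Islets were taken at 2 points of the day, ZT20 and ZT8, where ZT is zeitgeber time, the hours since lights on. All 10 arrays came from islets of male mice labelled C57BL/6 (C57Bl/6J in the methods) and 10 weeks old. There were 5 arrays at ZT20 and 5 at ZT8, each titled as a biological replicate. By the methods, mice of that age were acclimatized for several weeks before they were killed, so the age at isolation is not settled. Islets were freed with collagenase, picked by hand and kept in culture for 24 h before RNA was taken, although another label field gives an overnight culture. By the study's methods, the ZT20 mice lived on an inverted light cycle and the ZT8 mice on a normal one. On that account time of day and housing cannot be told apart. The labels give 7 as the clock hour of CT0 for all 10 arrays, and the titles write CT for ZT. The labels thus do not set the ZT20 mice apart by light cycle, and which source holds cannot be told here. The labels name no treatment, infection or mutation. An islet sample is a mixture of endocrine cells with blood vessels, resident immune cells and some exocrine tissue, so that more cells of a type and more RNA per cell cannot be told apart. Values are log2 signals, on which a difference of 1 is a 2-fold change, and every difference is ZT20 minus ZT8.

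Type I interferons signal through the receptor chains Ifnar1 and Ifnar2 and the kinases Jak1 and Tyk2, which lead to a complex that holds Stat2 and Irf9. This complex binds the interferon-stimulated response element, a short sequence of repeated GAAA or TTTC letters near the start of many target genes. Interferon gamma acts mainly through another element, the gamma-activated site. In islets the pathway is known for its activity in viral infection and in autoimmune diabetes.

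The start regions of the members were searched for the letters of both elements. The part of these letters in how the members moved from array to array was not tested. RefSeq windows of the mouse assembly GRCm38.p6, from 250 bases before to 50 bases after the start site, were at hand for 31 of the 41 measured members, with 39 windows in all since 7 members have several start sites. A gene was counted once if any of its windows held a match. The core of the interferon-stimulated response element, GAAA followed by any 2 bases and a further GAAA, searched on both strands with overlapping matches allowed, occurred in 20 of these 31 members (64.5%), against 3.99% of all 27025 genes in the table. The gamma-activated site letters TTCNNNGAA, which read the same on both strands, occurred in 13 of 31 members (41.9%), against 9.55% of all genes. In 2 members a match of the second motif overlapped a match of the first. A match is a description of the letters and not proof of a bound site. The stretches around the core are given for 11 of the 20 members with a match. They were chosen to show dense repeats, the chemokine, a neighbouring pair and some members with a match that rose and fell together closely. Members with a window but no match, such as Oasl2, Irf9 and Irf7, moved with the others as closely. Each stretch has 12 bases on either side and the core letters in capitals, and all are written 5′ to 3′ on the strand of the gene.
Isg15 (chr4:156200863-156200908, minus strand): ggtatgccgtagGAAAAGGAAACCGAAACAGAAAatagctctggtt
Bst2 (chr8:71537575-71537614, minus strand): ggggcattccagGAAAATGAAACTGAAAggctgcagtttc
Oas1a (chr5:120907518-120907557, minus strand): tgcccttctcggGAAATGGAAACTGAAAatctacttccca
Ifit1 (chr19:34640773-34640825, plus strand): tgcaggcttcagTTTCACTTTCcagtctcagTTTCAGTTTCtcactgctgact
Ifit3 (chr19:34583395-34583428, plus strand): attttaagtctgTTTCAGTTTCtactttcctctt
Gbp3 (chr3:142559987-142560026, plus strand): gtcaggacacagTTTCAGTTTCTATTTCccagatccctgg
Gbp7 (chr3:142530271-142530304, plus strand): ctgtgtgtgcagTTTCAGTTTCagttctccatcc
Stat2 (chr10:128270264-128270297, plus strand): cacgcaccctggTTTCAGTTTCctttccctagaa
Igtp (chr11:58199510-58199543, plus strand): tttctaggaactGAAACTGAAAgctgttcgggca
Irgm2 (chr11:58214901-58214934, plus strand): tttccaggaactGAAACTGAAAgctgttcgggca
Cxcl10 (chr5:92349081-92349114, minus strand): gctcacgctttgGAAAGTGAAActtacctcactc
Isg15 had 3 overlapping matches, beginning 78 bases before its start site, and Bst2, Oas1a, Gbp3, Ifit1 and Ifit3 had 2 matches each, 1 of those of Ifit3 outside the stretch shown. Igtp and Irgm2, which lie near each other on the same chromosome, shared an identical run of 29 of the 34 bases shown.

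Between the time points, the members lay a little higher at ZT20 in most cases and none passed the test. The difference was above 0 for 38 of 41 members (92.7%), where 61.9% of all tested rows had a difference above 0. The median member difference was 0.19, against 0.03 for all tested rows, and the differences ran from -0.06 for Eif2ak2 to 0.60 for Oas2. No member was called by limma at an adjusted p under 0.05, where 0.744% of all rows were called in either direction and 0.177% were called as higher at ZT20. At an unadjusted p under 0.05, 7 members (17.1%) were higher at ZT20, against 10.2% of all rows, and 0 members were lower, against 8.37%. These 7 were Irf8, Oas1a, Oasl1, Mx1, Iigp1, Gbp3 and Rtp4. In no member did the 5 ZT20 arrays all lie above the 5 ZT8 arrays, a separation that 2.54% of all rows showed. The 3 members with a difference under 0 were Eif2ak2, Samhd1 (-0.05) and Isg20 (-0.01).

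**Figure D1:**
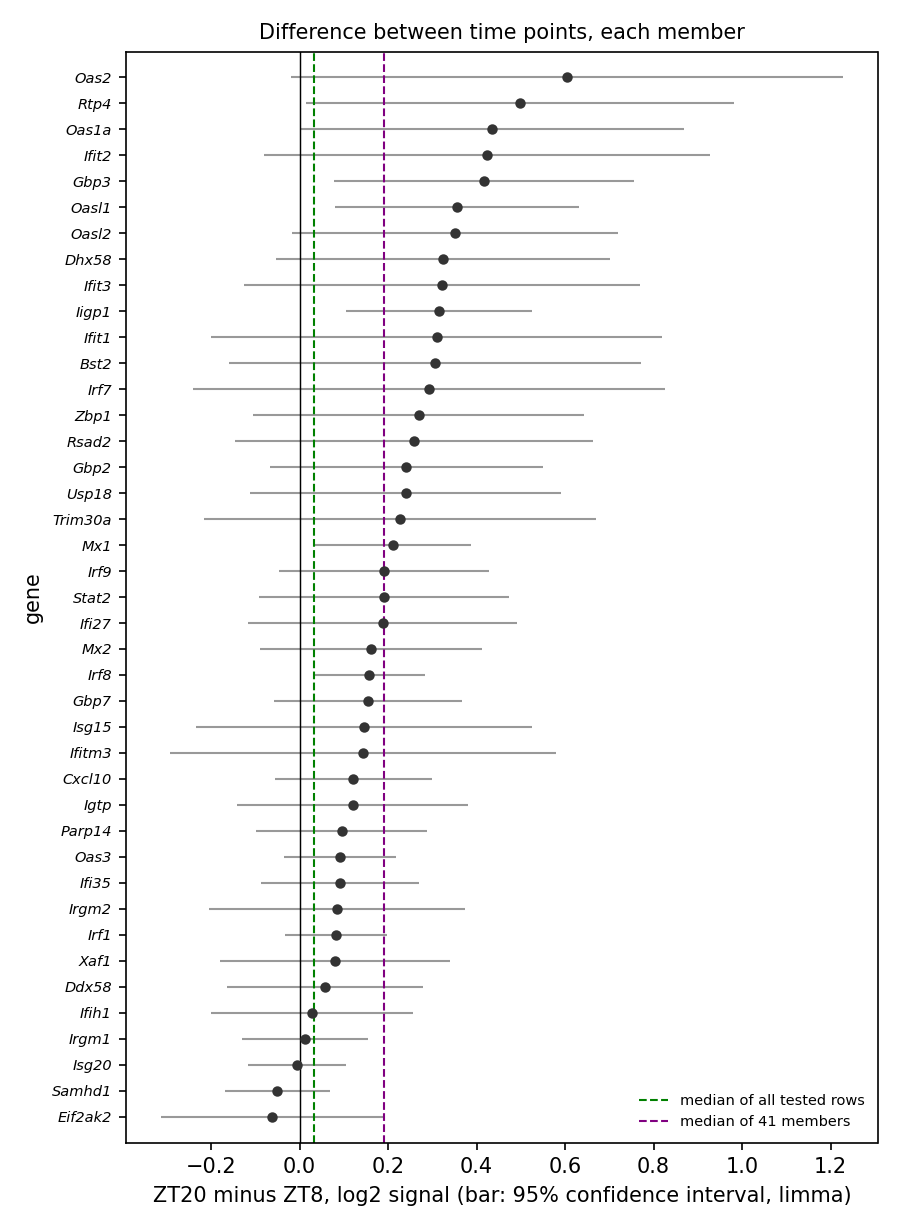
Difference of each of the 41 members between time points (x axis, ZT20 minus ZT8, log2 signal), with bars for the 95% confidence interval of limma and members ordered by their difference (y axis). Dashed lines mark the medians of all tested rows (0.03) and of the members (0.19), and 38 points lie right of 0, up to Oas2 at 0.60.

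The larger differences were between arrays of the same time point. Over the 10 arrays the members spanned a median range of 0.79, against 0.36 for all tested rows, and 14 members (34.1%) spanned at least 1, or 2-fold, against 2.06% of rows. The mean deviation of the 41 members from their own means was -0.22, -0.13, 0.39, 0.40 and 0.08 on ZT20 replicates 1 to 5, against 0.04, -0.33, -0.19, 0.04 and -0.08 on ZT8 replicates 1 to 5. ZT20 replicates 3 and 4 thus stood above the other 8 arrays, ZT20 replicate 1 lay below 4 of the 5 ZT8 arrays, and ZT8 replicate 2 was the lowest of all. The median deviation of all tested rows stayed between -0.05 and 0.05 on every array. All 41 members were above their own mean on ZT20 replicate 3, 40 were on ZT20 replicate 4, and 0 were on ZT20 replicate 1.

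**Figure D2:**
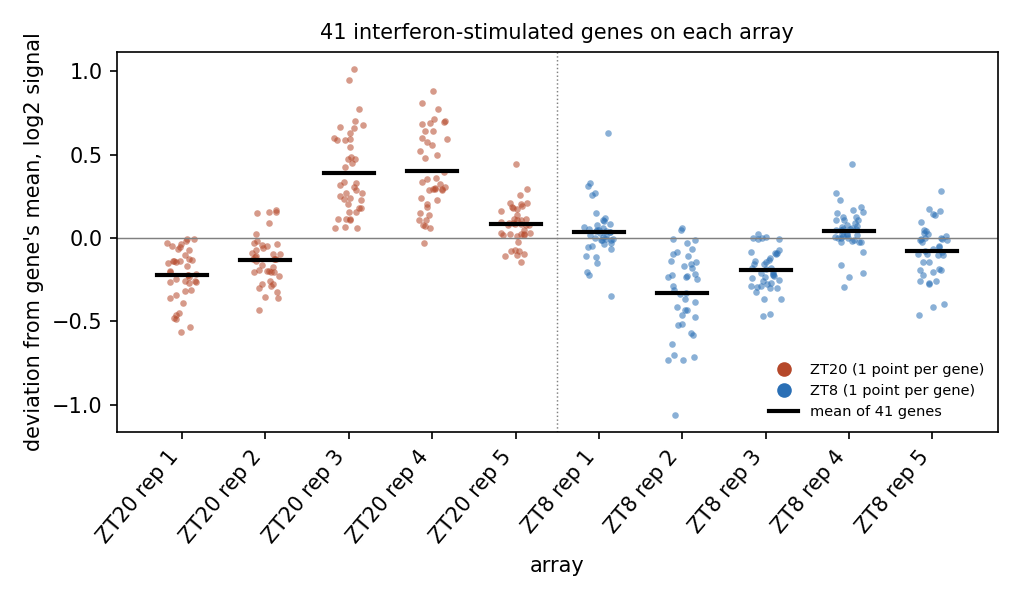
Deviation of each member from its own mean over 10 arrays (y axis, log2 signal; 1 point per gene, bar for the mean of 41 genes) on each array (x axis). The bars of ZT20 replicates 3 and 4 lie at 0.39 and 0.40, above the other 8 arrays, and the bar of ZT8 replicate 2 lies at -0.33.

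The highest value of a member fell on ZT20 replicate 3 in 12 cases and on ZT20 replicate 4 in 26, together 38 of 41 (92.7%), where 16.9% of all rows peaked on those arrays. In 31 members (75.6%) these were the top pair of arrays, against 2.36% of all rows. The lowest value fell on ZT8 replicate 2 in 22 members (53.7%), against 6.48% of rows. The exceptions to the peak were Irf1, highest on ZT20 replicate 5, and Eif2ak2 and Samhd1, highest on ZT8 replicate 5. Averaged over the members, the level was 7.43 ± 0.29 at ZT20 and 7.22 ± 0.16 at ZT8 (SD, n = 5 each). The SD among ZT20 arrays was larger than among ZT8 arrays in 37 members, with a median of 0.28 at ZT20 and 0.19 at ZT8, where all rows had 0.10 at ZT20 and 0.09 at ZT8. With ZT20 replicates 3 and 4 both left out, a choice made after their values were seen, the median member difference was -0.01, with 19 members above 0 and 22 under.

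**Figure D3:**
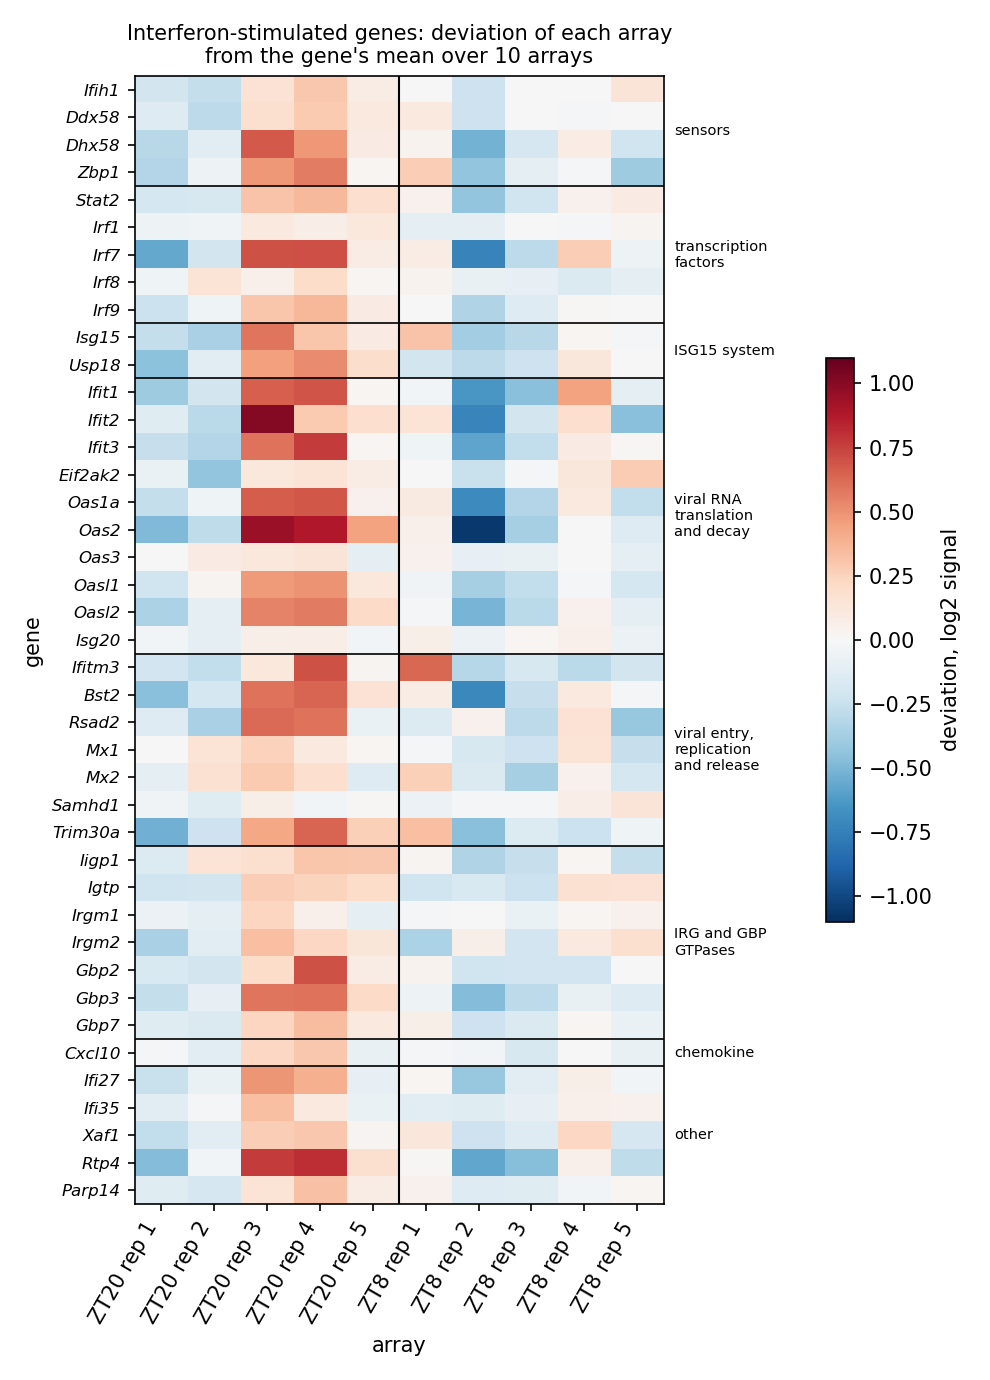
Deviation of every member (rows, grouped by role) from its own mean on each of the 10 arrays (columns, ZT20 left of ZT8), in log2 signal (red higher, blue lower). The columns of ZT20 replicates 3 and 4 are red in nearly every row, and the column of ZT8 replicate 2 is blue for most.

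Among the sensors, all 4 members had a difference above 0 and all 4 peaked on ZT20 replicate 3 or 4. Ddx58 encodes RIG-I, the helicase that detects viral RNA ends. It read 8.39, 8.24, 8.71, 8.82 and 8.64 on ZT20 replicates 1 to 5, against 8.63, 8.30, 8.53, 8.51 and 8.52 on ZT8 replicates 1 to 5. The groups overlapped over most of their range, and the difference was 0.06 ± 0.10 (SE). Ifih1, which encodes the long double-stranded RNA sensor MDA5, averaged 7.92 ± 0.24 at ZT20 and 7.89 ± 0.14 at ZT8 (SD, n = 5 each). Dhx58, whose product LGP2 tunes both sensors, averaged 7.56 ± 0.41 at ZT20 and 7.24 ± 0.24 at ZT8 and spanned 1.20 over the arrays. Zbp1, a sensor of left-handed nucleic acid linked to cell death, averaged 6.53 ± 0.37 at ZT20 and 6.26 ± 0.29 at ZT8.

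The 5 transcription factors differed in how far they moved, and 4 of them peaked on ZT20 replicate 3 or 4. Stat2, a subunit of the complex that binds the response element, read 8.78, 8.80, 9.29, 9.33 and 9.16 on the ZT20 arrays, against 9.02, 8.54, 8.75, 9.02 and 9.07 on the ZT8 arrays. Its top values were ZT20 replicates 3, 4 and 5 and its lowest was ZT8 replicate 2. Irf9, the DNA-binding subunit of that complex, averaged 8.09 ± 0.25 at ZT20 and 7.90 ± 0.15 at ZT8. Irf7, the factor that amplifies type I interferon production, read 7.21, 7.57, 8.48, 8.49 and 7.85 on the ZT20 arrays, against 7.85, 7.04, 7.48, 8.04 and 7.72 on the ZT8 arrays. Its ZT20 arrays alone spanned more than the whole ZT8 group, with replicate 1 among the lowest of all 10 arrays, and the difference was 0.29 ± 0.25 (SE), or 0.15 (without ZT8 replicate 2) to 0.47 (without ZT20 replicate 1) with 1 array left out. Irf1, an early responder to interferon gamma, moved far less, with 7.81 ± 0.08 at ZT20 and 7.73 ± 0.06 at ZT8.

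Irf8, a factor of myeloid and lymphoid cells, had a different array pattern. It read 7.35, 7.55, 7.46, 7.60 and 7.42 at ZT20, against 7.43, 7.31, 7.30, 7.24 and 7.30 at ZT8. Its second highest array was ZT20 replicate 2, where the members as a whole were below their mean. The difference was 0.16 with a 95% interval from 0.03 to 0.28 and an adjusted p of 0.19 (limma, Benjamini-Hochberg). Leukocyte markers were measured in 11 of 12 listed genes, and their mean deviation was -0.09, 0.22, 0.21, -0.07 and 0.03 on ZT20 replicates 1 to 5, against -0.11, -0.07, -0.05, 0.01 and -0.09 on ZT8 replicates 1 to 5. Their part in the level of Irf8 was not tested.

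Isg15 encodes a ubiquitin-like protein that is joined to other proteins, and Usp18 the protease that removes it and also restrains the receptor. Usp18 read 8.10, 8.44, 9.00, 9.08 and 8.75 on the ZT20 arrays, against 8.35, 8.26, 8.33, 8.68 and 8.56 on the ZT8 arrays. Replicates 3 to 5 of ZT20 were above every ZT8 array, and replicate 1 of ZT20 was below every one. Isg15 lay lower on the signal scale, with 5.66 ± 0.39 at ZT20 and 5.52 ± 0.28 at ZT8.

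The 10 members that act on viral RNA held the widest swings, with a median range of 1.21. Oas2 makes the oligoadenylates that activate RNase L. It read 6.14, 6.35, 7.58, 7.52 and 7.08 on ZT20 replicates 1 to 5, against 6.69, 5.57, 6.27, 6.63 and 6.49 on ZT8 replicates 1 to 5. Its top array lay 2.01 above its bottom array, the widest range of any member, and ZT20 replicate 1 was still below 4 of the 5 ZT8 arrays. The difference was 0.60 ± 0.29 (SE), with an adjusted p of 0.28 (limma). Oas1a, an enzyme of the same family, read 7.19, 7.40, 8.11, 8.13 and 7.50 at ZT20, against 7.55, 6.75, 7.13, 7.56 and 7.18 at ZT8. Again ZT20 replicates 3 and 4 were the top pair, and the difference was 0.44 ± 0.20 (SE). Close relatives of Oas1a share much of its sequence, and which of them its probes read was not tested.

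Oasl1, which in mice represses the translation of Irf7, read 7.11, 7.36, 7.80, 7.83 and 7.45 at ZT20, against 7.30, 6.96, 7.06, 7.31 and 7.14 at ZT8. Apart from ZT20 replicate 1, every ZT20 array was above every ZT8 array, and the difference was 0.36 with a 95% interval from 0.08 to 0.63 and an adjusted p of 0.18 (limma). Oasl2 averaged 7.28 ± 0.40 at ZT20 and 6.92 ± 0.23 at ZT8. Oas3 was nearly flat, with 6.45 ± 0.10 at ZT20 and 6.36 ± 0.07 at ZT8.

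The Ifit proteins bind viral RNA and block its translation. Ifit1 read 7.21, 7.40, 8.26, 8.29 and 7.62 on the ZT20 arrays, against 7.57, 6.97, 7.14, 8.05 and 7.51 on the ZT8 arrays. ZT8 replicate 4 was close behind the top pair of ZT20 replicates 3 and 4, so that the groups overlapped from 7.21 to 8.05. Ifit2 read 5.69, 5.52, 6.84, 6.11 and 6.01 on the ZT20 arrays, against 5.97, 5.09, 5.62, 6.00 and 5.36 on the ZT8 arrays. In Ifit2 replicate 3 of ZT20 stood alone at the top. Ifit3 read 6.12, 6.05, 6.97, 7.15 and 6.40 on the ZT20 arrays, against 6.33, 5.80, 6.11, 6.47 and 6.39 on the ZT8 arrays. Replicates 3 and 4 of ZT20 were again the top pair, while the other 3 ZT20 arrays lay within the ZT8 range.

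Eif2ak2 encodes PKR, the kinase that halts translation on double-stranded RNA. It averaged 7.77 ± 0.24 at ZT20 and 7.84 ± 0.19 at ZT8. Isg20, an RNA exonuclease, was bright and nearly constant. It read 8.53, 8.46, 8.62, 8.64 and 8.53 on the ZT20 arrays, against 8.62, 8.49, 8.58, 8.61 and 8.49 on the ZT8 arrays. Its range of 0.17 was the narrowest of the members, and the sign of its difference turned with the normalization and with single arrays left out.

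Of the 7 members that hinder viral entry, replication or release, Bst2 was the brightest. Its product, tetherin, holds budding virus at the cell surface. Bst2 read 9.59, 9.86, 10.65, 10.69 and 10.21 on the ZT20 arrays, against 10.13, 9.34, 9.79, 10.16 and 10.04 on the ZT8 arrays. The difference was 0.31 ± 0.22 (SE), less than the range of either group, and it ran from 0.17 (without ZT8 replicate 2) to 0.46 (without ZT20 replicate 1) with 1 array left out. Rsad2, or viperin, averaged 7.97 ± 0.45 at ZT20 and 7.71 ± 0.23 at ZT8, and Trim30a 6.06 ± 0.48 at ZT20 and 5.84 ± 0.29 at ZT8. Ifitm3, which blocks viral fusion, averaged 8.63 ± 0.39 at ZT20 and 8.49 ± 0.40 at ZT8, with 1 ZT8 array far above the rest (9.19 on replicate 1, next 8.38). The mean deviation of 5 endothelial markers was 0.26 on that array and 0.32 on ZT20 replicate 4, the array on which Ifitm3 was highest, and their part in its level was not tested.

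Mx1 is an antiviral GTPase whose gene carries a deletion in most laboratory strains, C57BL/6 included. It was among the dimmest members. It read 4.94, 5.10, 5.20, 5.06 and 4.97 at ZT20, against 4.94, 4.77, 4.72, 5.10 and 4.70 at ZT8. The difference was 0.21 with a 95% interval from 0.03 to 0.39 and an adjusted p of 0.21 (limma). Mx2 averaged 5.87 ± 0.19 at ZT20 and 5.71 ± 0.24 at ZT8. Samhd1, which depletes deoxynucleotides, averaged 8.19 ± 0.07 at ZT20 and 8.24 ± 0.08 at ZT8.

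Immunity-related and guanylate-binding GTPases attack the vacuoles in which microbes live. All 7 had a difference above 0 and all 7 peaked on ZT20 replicate 3 or 4. Iigp1 had the lowest p of the members. It read 4.46, 4.76, 4.79, 4.91 and 4.90 on the ZT20 arrays, against 4.64, 4.28, 4.35, 4.63 and 4.35 on the ZT8 arrays. Apart from ZT20 replicate 1, every ZT20 array was above every ZT8 array. The difference was 0.32 with a 95% interval from 0.10 to 0.53 and an adjusted p of 0.13 (limma). Without ZT20 replicate 1 the adjusted p of Iigp1 was 0.048, the only call of a member under any alternative tried. Its level was near that of the array's 23 background control rows, whose mean ran from 4.24 to 4.33 on the ZT20 arrays and from 4.07 to 4.20 on the ZT8 arrays. Tested rows at or under the median level of 6.26 had a median difference of 0.07, and those above it of -0.01. The part of the background in the difference of Iigp1 was not tested. In all, 34 members lay above that median level and 7 at or under it.

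Gbp3 read 6.55, 6.72, 7.39, 7.40 and 7.02 on the ZT20 arrays, against 6.75, 6.33, 6.52, 6.72 and 6.66 on the ZT8 arrays. ZT20 replicates 3, 4 and 5 were above every ZT8 array, and the difference was 0.42 with a 95% interval from 0.08 to 0.75 and an adjusted p of 0.20 (limma). Gbp7 had the highest mean of the GTPases and moved less. It read 7.98, 7.96, 8.36, 8.45 and 8.22 on the ZT20 arrays, against 8.18, 7.88, 7.96, 8.14 and 8.04 on the ZT8 arrays. Its replicates 3, 4 and 5 of ZT20 were above every ZT8 array, as in Gbp3. Gbp2 averaged 6.39 ± 0.36 at ZT20 and 6.15 ± 0.13 at ZT8. The IRG members Igtp, Irgm1 and Irgm2 had differences of 0.12, 0.01 and 0.09.

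Cxcl10, the chemokine that draws activated T cells, was dim. It read 5.31, 5.21, 5.56, 5.63 and 5.25 on the ZT20 arrays, against 5.32, 5.30, 5.15, 5.33 and 5.25 on the ZT8 arrays. Only ZT20 replicates 3 and 4 left the range of the other 8 arrays. Ifi27, a mitochondrial and nuclear-envelope protein, read 9.47, 9.64, 10.20, 10.11 and 9.62 on the ZT20 arrays, against 9.73, 9.30, 9.60, 9.78 and 9.69 on the ZT8 arrays. The 3 remaining ZT20 arrays lay within the ZT8 range. Rtp4, a receptor transport protein with antiviral activity, read 6.61, 7.05, 7.86, 7.90 and 7.26 on the ZT20 arrays, against 7.10, 6.52, 6.62, 7.14 and 6.81 on the ZT8 arrays. The difference of Rtp4 was 0.50 with a 95% interval from 0.02 to 0.98 and an adjusted p of 0.26 (limma). Ifi35, Xaf1 and Parp14 had differences between 0.08 and 0.09.

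**Figure D4:**
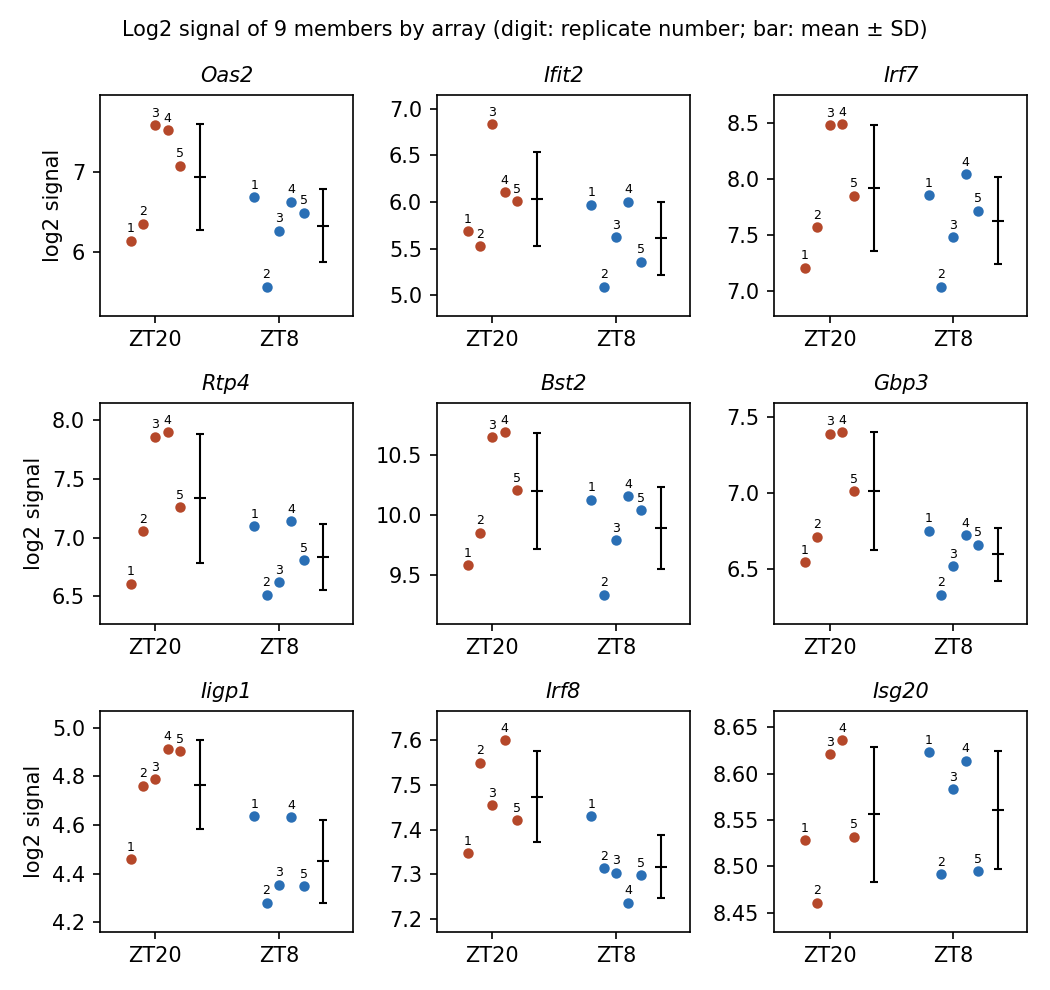
Log2 signal (y axis) of 9 members on the 5 ZT20 and 5 ZT8 arrays (x axis), with digits for the replicate number and bars for the mean ± SD. Replicates 3 and 4 of ZT20 are the top pair in Oas2, Ifit2, Irf7, Rtp4, Bst2 and Gbp3. Iigp1 and Irf8 show other orders and Isg20 spans 0.17 (vertical scales differ).

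The members varied together across the arrays. The mean Pearson r over the 820 pairs of members was 0.68 over 10 arrays, against 0.04 for pairs of all tested rows, and 809 pairs had r above 0. After each gene was centred on its mean at each time point, the mean r was 0.67, against 0.03 for all rows. Within ZT20 it was 0.77 and within ZT8 it was 0.49, each over 5 arrays. These correlations are descriptions, since all members share the same 10 samples and their depth of signal. Set against the mean of the other members, 20 of 41 members had r of at least 0.9, led by Oasl2 (0.99), Bst2 (0.98), Irf9 (0.98) and Gbp7 (0.98), and 4 had r under 0.6, namely Irgm2 (0.59), Irf8 (0.55), Eif2ak2 (0.53) and Samhd1 (0.20). The median r was 0.84 for the 20 members with the response element core in their window and 0.85 for the 11 with a window but no match, among them Oasl2.

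Outside the list, the rows most like the mean of the members were looked for among 15343 rows that name exactly 1 gene and lie above the median level. The 10 closest had r between 0.92 and 0.97 over 10 arrays. They were Oas1g, Gbp9, Phf11b, Gbp8, H2-T-ps, Gbp4, Tap1, B2m, H2-Q4 and Cfb, and 5 of them stand in a separate list of further interferon-induced genes. Tap1, which moves peptides to class I molecules, averaged 8.32 ± 0.21 at ZT20 and 8.19 ± 0.11 at ZT8. B2m, the light chain of those molecules, averaged 10.83 ± 0.36 at ZT20 and 10.69 ± 0.30 at ZT8. Cfb, a complement factor, averaged 7.91 ± 0.47 at ZT20 and 7.40 ± 0.56 at ZT8.

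The rest of the pathway was taken from lists. Of 53 further interferon-induced genes, read from 51 rows, 0 were called. Counted by row, 47 of 51 (92.2%) had a difference above 0, against 61.9% of all tested rows, 11 (21.6%) were higher at ZT20 at an unadjusted p under 0.05, against 10.2%, and 1 (1.96%) was lower, against 8.37%. Their mean deviation was 0.24 and 0.37 on ZT20 replicates 3 and 4. Of 21 interferon ligand genes, read from 20 rows, 0 were called and 3 lay above the median level. Counted by row, 13 of 20 (65%) had a difference above 0, against 61.9% of all tested rows. The mean level of the ligand genes ran from 5.06 to 5.18 on the ZT20 arrays and from 4.99 to 5.14 on the ZT8 arrays. All 6 receptor genes stayed close to even, with 3 above 0 (50%) and 3 under. Ifnar1 averaged 8.76 ± 0.10 at ZT20 and 8.78 ± 0.05 at ZT8, and Ifnar2 8.52 ± 0.12 at ZT20 and 8.55 ± 0.04 at ZT8. Of 4 measured signal transducers, 2 were above 0 (50%) and 2 under. The 7 feedback inhibitors split into 3 above 0 (42.9%) and 4 under. The 14 genes of upstream sensing split into 9 above 0 (64.3%) and 5 under, against 61.9% of all tested rows above 0. In either list 0 were called. The highest value fell on ZT20 replicate 3 or 4 in 8 of the 14 and in 3 of the 7, against 16.9% of all rows. The mean deviation of the upstream sensing genes was 0.07 and 0.21 on ZT20 replicates 3 and 4, and lowest on ZT8 replicate 2 (-0.10).

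**Figure D5:**
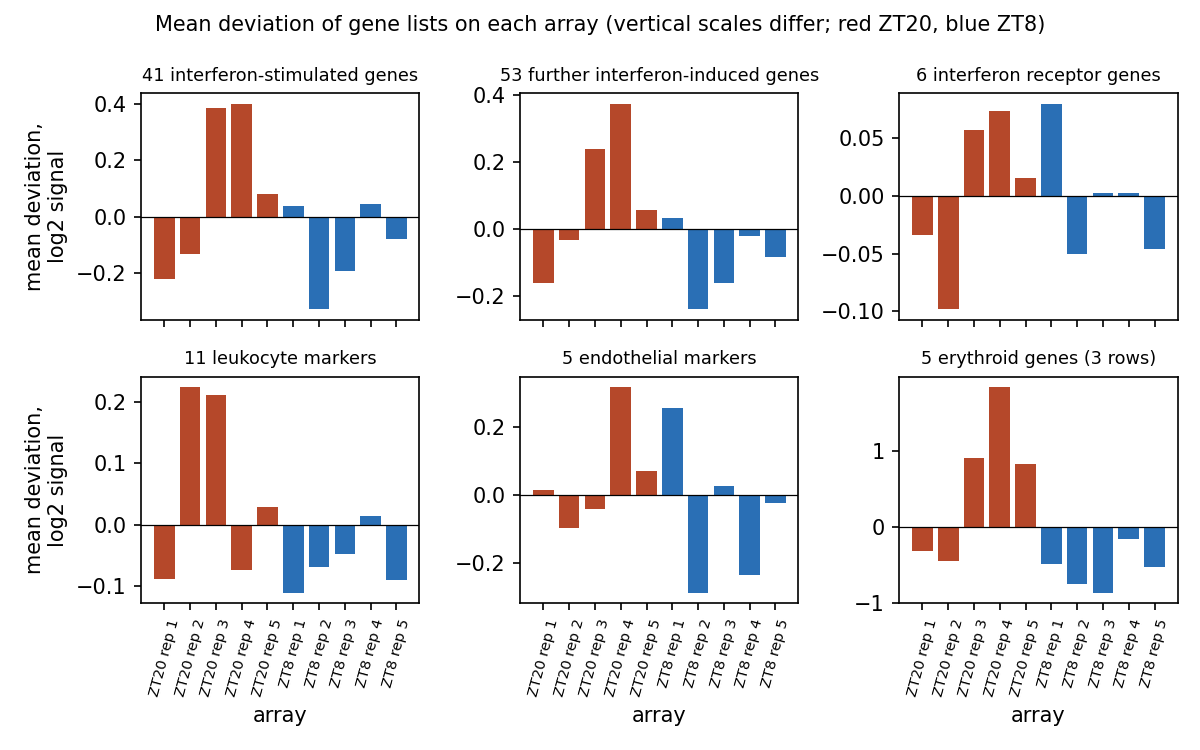
Mean deviation from each gene's own mean (y axis, log2 signal, vertical scales differ) for 6 gene lists on each array (x axis, ZT20 left of ZT8). ZT20 replicates 3 and 4 are highest for the members and the further interferon-induced genes. The mean deviation of the receptor list is at most 0.10 in size. That of the 5 erythroid genes, read from 3 rows, reaches 1.84 on ZT20 replicate 4.

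Markers of other cells did not all follow the same arrays. By their mean, the leukocyte markers were high on ZT20 replicates 2 and 3 and not on replicate 4. A difference above 0 was found in 10 of the 11 (90.9%), against 61.9% of all tested rows. Their mean level ran from 6.62 to 6.93 on the ZT20 arrays and from 6.59 to 6.72 on the ZT8 arrays, with no marker listed at 0. Single leukocyte markers differed. Cd68 was highest on ZT20 replicates 3 (9.143) and 4 (8.942), while Lyz2 was lowest on ZT20 replicate 4 (6.475). Erythroid genes, 5 genes read from 3 rows, were all highest on ZT20 replicate 4 and had a mean deviation of -0.32, -0.46, 0.90, 1.84 and 0.83 on ZT20 replicates 1 to 5, against -0.48, -0.76, -0.87, -0.16 and -0.52 on ZT8 replicates 1 to 5. Their mean level ran from 7.23 to 9.53 on the ZT20 arrays and from 6.82 to 7.53 on the ZT8 arrays. In these means, a row shared by 2 of the genes counts once for each. Alas2, read from a row of its own, spanned 0.296 over the 10 arrays. The row of Hba-a1 and Hba-a2 spanned 3.349, and that of Hbb-bs and Hbb-bt 3.265. All 3 rows were higher at ZT20 at an unadjusted p under 0.05, against 10.2% of all tested rows, and 0 were called. Over the 10 arrays their r with the mean of the members was 0.89 (Hba-a1 and Hba-a2), 0.86 (Hbb-bs and Hbb-bt) and 0.78 (Alas2). That r ran from 0.17 to 0.64 for endothelial, 0.30 to 0.69 for stellate and fibroblast, and -0.38 to 0.86 for leukocyte markers. Stellate and fibroblast markers, 4 genes all with a difference above 0, had a mean deviation of -0.25, 0.02, -0.09, 0.33 and 0.31 on ZT20 replicates 1 to 5, against 0.16, -0.44, -0.14, -0.06 and 0.15 on ZT8 replicates 1 to 5. Endothelial markers had 0.01, -0.10, -0.04, 0.32 and 0.07 on the ZT20 arrays, against 0.26, -0.29, 0.03, -0.23 and -0.02 on the ZT8 arrays, with all 5 differences above 0. Both lists were high on ZT20 replicate 4 and lowest on ZT8 replicate 2, as the members were, and neither was above its mean on ZT20 replicate 3. Alpha and delta cell markers, 2 genes each, were also highest on ZT20 replicate 4 (0.19 and 0.15) and lowest on ZT8 replicate 2 (-0.14 and -0.17). The islet label was borne out by 6 beta cell markers, whose mean level ran from 9.91 to 10.24 on the ZT20 arrays and from 9.83 to 10.34 on the ZT8 arrays, and 4 acinar markers were bright as well, at 12.14 to 12.96 on the ZT20 arrays and 12.15 to 13.07 on the ZT8 arrays. The beta cell markers had a mean deviation of 0.08 and -0.25 on ZT20 replicates 3 and 4. The part of blood, immune, stellate, endothelial or endocrine cells in the levels of the interferon-stimulated genes was not tested.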

How the data were processed

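The deposited values were log2 signals per transcript cluster on 10 one-colour Affymetrix arrays, made by the authors with GCRMA by a heading in the supplement and, by the submitters' processing notes, with Affymetrix Expression Console. The methods name a different array type than the deposited rows. Build and settings were not given in the sources used here. RNA was amplified and labelled with the WT Pico kit.

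Values were used as deposited. Of 72688 rows, 6732 controls and 33142 rows without a gene name were left out, which left 32814. Correlations between arrays lay between 0.990 and 0.997. Per member, the row naming it alone with the highest mean was used (Irf1 has 2 such rows). ZT20 and ZT8 arrays were compared with limma 3.58.1 (lmFit and eBayes, R 4.3.3), two-sided, with Benjamini-Hochberg adjustment over all 32814 rows, after the code was tested on simulated data. The p-values measure the spread between these samples, and 5 arrays a group limit the precision. The members, lists and tests were chosen with earlier results of these data known. Members named with every array's value were those at an unadjusted p under 0.05, the 8 with the widest range and the brightest of each role. Alternatives were centring, quantile normalization, array weights, other row filters, a trended and robust prior, the replicate block, the methods' t-test and each array left out. Promoter windows came from RefSeq (GRCm38.p6).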

Additional observations from a re-analysis of the deposited data

Results flagged for a closer look

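Ifitm3 on ZT8 replicate 1 read 9.187, with the next ZT8 array at 8.378, a gap of 0.859 of the whole range of the 5 ZT8 arrays. It was looked for among 82 sets of 5 arrays, 1 for each member and time point, and was the only sample so far from the others. Chance alone marks about 1 set in 20.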

How the results depend on the processing

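No member was called under any alternative except that 1 was, Iigp1, without ZT20 replicate 1, so leaving out single arrays gave 0 to 1 called members. Rows called numbered 244 and moved to 1 with all transcript rows, 830 with array weights, 603 with arrays centred on their medians, 52 with quantile normalization, 51 with the replicate block, 467 among rows above the median level, 2 by the methods' t-test, 516 with a trended and robust prior, and 1 to 427 with 1 array left out. Calls higher at ZT20 made up 23.8% of these 244 rows, 10.6% after centring and 9.42% among rows above the median level. Whether the shared replicate numbers pair the samples cannot be told from these values. Deviations of same-numbered arrays correlated at 0.31, 0.28, -0.13, -0.12 and 0.35 for replicates 1 to 5. Those of arrays with unlike numbers correlated at -0.40 to 0.39. With the replicate block, as without it, 0 members were called. The median member difference of 0.19 stayed between 0.12 and 0.26 with 1 array left out, and was 0.14 after centring, 0.18 after quantile normalization and 0.29 with array weights. Members higher at ZT20 at an unadjusted p under 0.05 numbered 7, and 17 with array weights, 2 after centring, 11 with the replicate block, 2 by the methods' t-test, 3 among rows above the median level and 3 to 15 with 1 array left out (15, 12, 3 and 3 without ZT20 replicates 1, 2, 3 and 4, and 3, 4 and 4 without ZT8 replicates 2, 3 and 5). In an alternative added after seeing the data, ZT20 replicates 3 and 4 together left out, 1 row was called, the median member difference was -0.01, and differences were -0.0075 for Bst2, -0.012 for Cxcl10, -0.078 for Ddx58, -0.044 for Ifi27, -0.038 for Ifit1, -0.026 for Ifit3, -0.083 for Irf7 and -0.0039 for Usp18. With 1 array left out, Ddx58 ran from -0.0063 (without ZT20 replicate 4) to 0.14 and Isg20 from -0.026 to 0.018, and Isg20 was 0.0070 with array weights and 0.028 after quantile normalization. The causes were not tested. Leaving out 1 array moved the difference by over 1.5 times in 12 of the 20 members given by array. Of 395 tested values for these 20, 379 kept their direction and side of the threshold.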
